A study of Mus musculus with 9 samples.

Results

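The deposited table of the SB28 glioma study holds 3 libraries labelled astrocytes, which are described here alone, 3 of 9 libraries in all. They were chosen by their labels and not by any measured value. The study implanted GFP-labelled SB28 cells, a mouse glioma line, into the brain and gave BAL101553, a prodrug of a compound that acts on microtubules. The 3 libraries are labelled as ex vivo brain samples of C57BL/6 mice, as the other 6 are, with BAL101553 as the treatment and astrocytes as the cell type; no genotype or age is labelled. The other 6 libraries, 3 labelled control and 3 labelled BAL101553, are labelled whole tissue, whereas the Methods describe dissociated tumor cells sorted as GFP-positive and negative for CD45 and CD11b; they are called SB28 libraries below and serve only as a background level. The text of the study does not name the astrocyte-labelled libraries or say how their cells were obtained, and the labels do not say whether each is a separate mouse, so every SD below measures the spread among these 3 libraries, which may be technical. Because all 3 carry 1 treatment label, they show nothing about an effect of the drug.

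Astrocytes are the glial cells that clear glutamate from synapses, buffer potassium, move water along blood vessels and hand lactate and lipids to neurons. Oligodendrocytes wrap axons in myelin, microglia are the resident macrophages of the brain, and endothelial cells and pericytes form the wall of its capillaries. The ventricles are lined by ciliated ependymal cells and hold the choroid plexus, an epithelium that secretes cerebrospinal fluid. RNA from a dissociated brain can carry transcripts of all of these cells, and each leaves its own set of marker transcripts in a bulk library.

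The libraries held 29230743, 25730746 and 22919523 counted reads. Values are CPM, the counts of a gene per 1000000 counts of its library, unless a length-scaled level is named, for which counts were divided by the exon length of the gene before the same scaling. At these depths a gene with 0 counts may have a level of up to 0.103, 0.117 and 0.131 CPM in libraries 1, 2 and 3 (3 counts), and intervals given below are exact 95% Poisson intervals that cover counting error alone. A level of at least 1 CPM was reached by 14004, 14143 and 14234 genes, and by 13840 genes in all 3 libraries. No pair of libraries was a repeat of 1 library, since their counts differed by 14.3 to 24.1 times the variance expected from sampling. With 1 group and no comparison between groups, no test was made, and differences among the 3 libraries are given as ratios.

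The 5 defining markers, 1 each of astrocyte transport, astrocyte endfeet, myelin, microglia and endothelium, were all present, so that the libraries labelled astrocytes also held transcripts that mark other cells. Slc1a2, the main glutamate transporter of astrocytes (chromosome 2, 102658659 to 102790784 on the plus strand of GRCm38), was at 6619.6, 5356 and 5533 CPM in libraries 1, 2 and 3. Aqp4, the water channel of astrocyte endfeet, was at 786, 609 and 762 CPM. Both were lowest in library 2, and both lay within 1.29-fold across the libraries. Mbp, a structural protein of compact myelin and the marker of oligodendrocytes, was at 4064, 4029 and 3209.8 CPM, lowest in library 3. Csf1r, the receptor on which microglia depend for survival, was at 178, 373 and 269 CPM, lowest in library 1 and 2.10-fold higher in library 2. Cldn5, a tight junction protein of brain endothelium (chromosome 16, 18776847 to 18778262 on the plus strand), was at 70.7, 67.2 and 70.0 CPM and differed by 1.05-fold at most. The length-scaled level divides by all annotated exons of a gene, which can exceed the transcript present, so that it compares genes only roughly. On this level Mbp (1795 ± 265, mean ± SD of 3 libraries) and Slc1a2 (1791 ± 223) lay within the SD of each other. Cldn5 (197 ± 5.12) and Csf1r (191 ± 69.9) were lower. In the 6 SB28 libraries, none of the 5 markers passed 1.55 CPM. In bulk RNA, fewer cells of a type and less RNA per cell cannot be told apart, so that none of these levels is a share of cells.

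Summed over 20 marker genes, the astrocyte list took 31545, 27533 and 30615 CPM in libraries 1, 2 and 3. The 15 genes of the oligodendrocyte list took 23620.2, 25628 and 21322 CPM. On the CPM scale the astrocyte sum (29898 ± 2099.9) was above the oligodendrocyte sum (23523 ± 2155) in every library, and on the length-scaled level the order turned in libraries 1 and 2, with 26753, 24245 and 25955 for astrocyte genes against 27255, 30114 and 24254 for oligodendrocyte genes. A sum grows with the number of genes listed, so that neither scale ranks the cell types. All other lists were far lower in CPM: choroid plexus 3124 ± 1461 over 6 genes, microglia 1709 ± 573 over 20, pericyte 1243 ± 88.3 over 6, endothelium 899 ± 99.7 over 13 and ependymal 885 ± 260.0 over 7. The neuron list reached 121 ± 7.37 CPM over 12 genes. On the length-scaled level the choroid plexus list was at 10093 ± 4545 and the microglia list at 3076 ± 1138, both still below the astrocyte and oligodendrocyte lists. The plot of summed marker levels shows these lists with the range of the SB28 libraries.

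**Figure D1:**
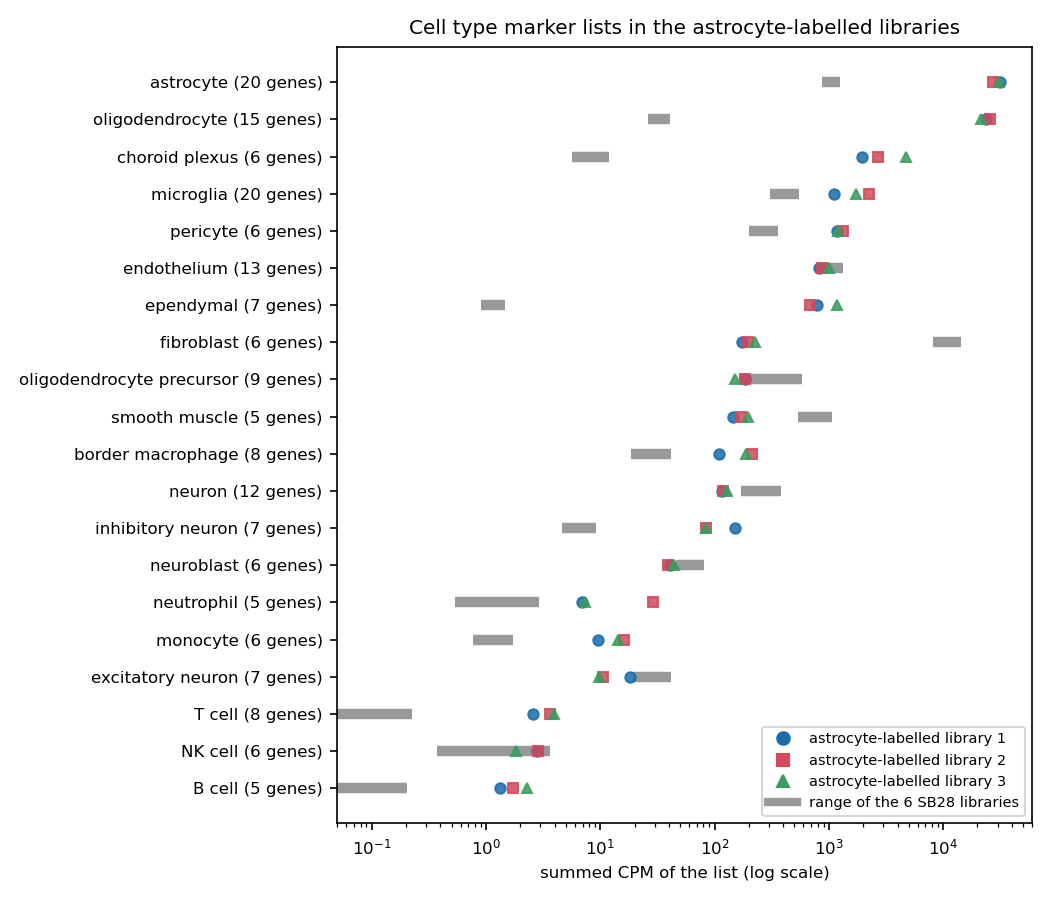
Summed CPM (log axis) of each cell type marker list in the 3 astrocyte-labelled libraries (symbols), with the range over the 6 SB28 libraries as a grey bar; bars that reach 0 run off the left edge. Astrocyte and oligodendrocyte genes stand at the top, with 27533 to 31545 and 21322 to 25628 CPM, and the 3 symbols stand visibly apart in several lists, among them choroid plexus, microglia and neutrophil.

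The most counted transcripts were those of astrocytes and of myelin. The 10 most counted genes took 7.21% of all counts, the top 100 took 21.7%, and 962 genes together took 50% (mean CPM of 3 libraries). Among the genes reported, Scd2, a desaturase of fatty acids, led with 8719.6, 8804 and 7169.8 CPM. Atp1b2, a subunit of the sodium-potassium pump known from glia, had 2772, 2367 and 2965 CPM. It was lowest in library 2, as was Slc1a3 (3707, 2948 and 3473 CPM), the other glutamate transporter of astrocytes. Glul, which turns the glutamate taken up into glutamine, was nearly level at 6555, 6398 and 6191 CPM. Apoe, the main lipoprotein of the brain, was at 6935, 5598 and 6047 CPM, and Sparcl1, a secreted matrix protein that astrocytes release at synapses, at 5168, 4219.7 and 4842 CPM. Genes of the oligodendrocyte list and Tubb4a, a tubulin of oligodendrocytes, took further places in the top 25, with Trf (4193, 4838 and 4069 CPM), Mbp, Cnp (3519, 3730.2 and 3096 CPM), Mal (3108, 3522 and 3023 CPM), Mag (2661, 2949 and 2444 CPM) and Tubb4a (2765, 2897 and 2307 CPM). Apart from Mbp, which was highest in library 1, these 6 genes were highest in library 2, and all 6 were lowest in library 3. Enpp2, a secreted lipase of oligodendrocytes and choroid plexus (2627, 3101 and 3188 CPM), and Ptgds, the prostaglandin D synthase of meninges and oligodendrocytes (2026, 2612 and 2794 CPM), were instead lowest in library 1 and highest in library 3.

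Scaled by exon length, 18 of the top 25 genes reported remained and their order changed. By mean, Apoe then led with 11670.2 ± 1325, followed by Ttr with 9863 ± 4459, Cst3, an inhibitor of cysteine proteases, with 7939 ± 543, and Glul with 7739 ± 369 on the length-scaled level. In library 3 Ttr was above Apoe, with 14821 against 11112. Apoe, Cst3 and Glul differed by 1.24-fold, 1.18-fold and 1.06-fold in CPM, whereas Ttr, the transthyretin that carries thyroid hormone in cerebrospinal fluid, was 2.48 times its lowest level in library 3. Ptgds was at 6044 ± 914. Cldn11, the tight junction protein of myelin (3218 ± 326), Gpr37l1, a receptor of astrocytes (3546 ± 322), and Apod, a lipocalin (2819.6 ± 352), entered the top 25 only on this scale. Apoe and Ttr overlapped in mean ± SD, as did Ttr, Cst3 and Glul, and Sparcl1, Scd2 and Ptgds, whereas Glul and Sparcl1 did not.

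**Figure D2:**
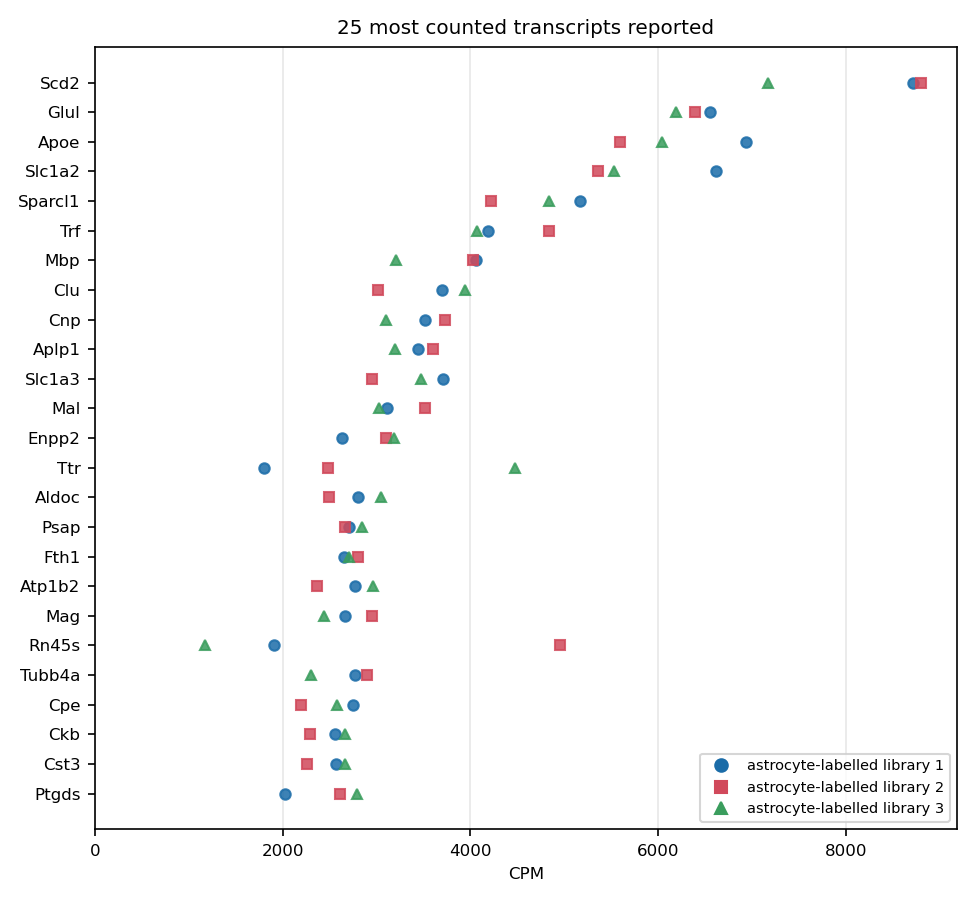
CPM of the 25 most counted genes reported, from the highest mean at the top, with 1 symbol for each of the 3 astrocyte-labelled libraries. Most genes lie close together in the 3 libraries, whereas Ttr (1804 to 4474 CPM) and Rn45s (1170 to 4958 CPM) spread widely.

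The astrocyte genes moved together among the libraries. Their median coefficient of variation, the SD in percent of the mean, was 10.1%, against 7.71% over all genes. All 20 genes of the list had at least 1 CPM, and 0 of 20 differed 2-fold between any 2 libraries, near the 2.99% of all 14137 genes tested (mean of at least 1 CPM). Library 2 was the lowest for 19 of 20, beside 37.7% of all genes, with a median ratio to library 1 of 0.877, and this held for 18 of 20 with the TMM scaling of edgeR, which sets the libraries to 1 level over most genes. Library 3 was the highest for 13, with 2 < 1 < 3 as their order, beside 28.4% of all genes, and library 1 for 7, beside 19.7%, of which 6 had the order 2 < 3 < 1, beside 9.34%. This split turned to 6 and 14 with TMM scaling. The exception was Glul, whose lowest value was in library 3. Gfap, the filament protein that rises in reactive astrocytes, was at 123, 98.5 and 115 CPM, and S100b, a calcium-binding protein, at 267, 242 and 265 CPM, both low on the length-scaled level (107 ± 11.5 for Gfap and 699 ± 32.5 for S100b) beside the 1791 ± 223 of Slc1a2. Aldh1l1, the folate enzyme often used to mark all astrocytes, was at 281, 251 and 294 CPM, and the transcription factor Sox9 at 177, 157 and 184 CPM. In the SB28 libraries the same list summed to 879 to 1247 CPM, most of it from Gja1 (649 to 844 CPM), the connexin 43 gap junction protein, whereas Slc1a2 and Slc1a3 did not pass 2.81 CPM there.

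By function, glutamate and GABA handling took 2.28, 1.99 and 2.12% of all counts in libraries 1, 2 and 3 over 10 genes. Beside the genes named above, it held the GABA transporter Slc6a11 (1946, 1645 and 2071 CPM). Ion and water transport, again over 10 genes, took 1.55, 1.38 and 1.57%, with Kcnj10, the potassium channel of glia, at 1124, 1106 and 1035 CPM. Secreted proteins (13 genes, among them Apoe, Clu, Cst3, Sparcl1 and Ptgds) took 2.59, 2.23 and 2.56%. Library 2 was lowest in 12 of the 13, beside 37.7% of all genes, Ptgds being the exception. Genes of glycolysis and lactate took 0.795, 0.734 and 0.854%, led by Aldoc, the aldolase of astrocytes, at 2804, 2494 and 3047 CPM; Eno1 was at 0 counts in all 3 libraries, a row whose reads may be shared with a near-identical copy. Cholesterol synthesis took 0.300, 0.267 and 0.279% over 14 genes, of which 12 were highest in library 1, beside 19.7% of all genes. With TMM scaling 13 were highest there, beside 4130 of 14137 genes. Metallothioneins, which bind zinc and copper, were highest in library 3, with Mt1 at 373, 342 and 474 CPM and Mt3 at 350.0, 301 and 415 CPM. The list of 11 redox and metallothionein genes took 0.315, 0.284 and 0.361%. No gene of these 6 groups with a mean of at least 1 CPM differed 2-fold among the libraries, beside 2.99% of all genes.

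Receptors known from astrocytes were present. Grm3, the metabotropic glutamate receptor of adult astrocytes, was at 334, 293 and 297 CPM, whereas Grm5, which is known from young astrocytes and neurons, was at 3.32, 2.45 and 1.96 CPM. Gabbr1, a subunit of the GABA-B receptor, was at 634, 534 and 548 CPM and Ednrb, an endothelin receptor, at 339, 293 and 288 CPM. Of 17 glial transcription factors, those of the oligodendrocyte line, Olig1 (581, 604 and 505 CPM) and Sox10 (486, 549 and 416 CPM), were highest in library 2, and those of astrocytes, such as Sox9, Sox2 (178, 150.1 and 183 CPM) and Id4 (165, 133 and 176 CPM), were lowest there. Lhx2, a transcription factor of the telencephalon, was at 119, 90.8 and 108 CPM. A mean of at least 1 CPM was reached by 5 genes of the telencephalon list, 4 of the thalamus and midbrain list and 5 of the cerebellum list. Irx2, a factor of more posterior brain, was at 2.91, 2.80 and 3.93 CPM, which does not stand for these lists. The hindbrain and spinal cord Hox genes summed to 0.855, 1.36 and 0.785 CPM over 39 genes, of which 0 reached a mean of 1 CPM. The brain region of the cells was not tested.

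Oligodendrocyte genes changed as a set in another order. Library 3 was the lowest for 15 of 15, beside 26.9% of all genes, and library 2 was the highest for 13 of 15, beside 30.4%. The 13 had the order 3 < 1 < 2, beside 16.5% of all genes, and the other 2, Mbp and Ppp1r14a, 3 < 2 < 1, beside 10.4%, and with TMM scaling the counts stayed at 15 and 13. The differences were small, with a median ratio of library 3 to library 2 of 0.841 and none past 2-fold. Mog, the myelin antigen of the outer sheath, was at 755, 813 and 707 CPM, Mobp at 1141, 1191 and 1047 CPM, and Ermn, a cytoskeletal protein of mature cells, at 695, 803 and 646 CPM. In the SB28 libraries the list summed to 26.2 to 40.9 CPM. Precursor genes were far below the mature ones on the length-scaled level, with 96.0 ± 16.3 over 9 genes, which summed to 184, 186 and 149.7 CPM, of which Cspg4 (66.0, 77.3 and 65.3 CPM), which pericytes also express, Matn4 (49.4, 35.1 and 24.6 CPM) and Enpp6 (41.1, 45.1 and 30.4 CPM), a gene of newly formed oligodendrocytes, made up most. Pdgfra, the receptor that defines precursors, was at 7.83, 10.2 and 9.73 CPM, and Gpr17, of committed precursors, at 6.98, 7.58 and 7.37 CPM, and neither differed more than 1.30-fold.

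Microglial genes differed more among the libraries than those of astrocytes or myelin. The 20 genes summed to 1117 CPM in library 1 (interval 1105 to 1129.7), 2262 in library 2 (2244 to 2281) and 1746 in library 3 (1729 to 1763). Library 2 was the highest for 20 of 20, beside 30.4% of all genes. Library 1 was the lowest for 19 of 20, beside 35.4% of all genes, and both counts were the same under TMM scaling. These 19 had the order 1 < 3 < 2, beside 13.9% of all genes. Between library 2 and library 1, 11 of 20 were at least 2-fold higher, beside 1.66% of all genes, with a median ratio of 2.07 against 1.004 over all genes. The complement gene C1qa was at 62.4, 158 and 115 CPM and the protease Ctss at 70.4, 199 and 120.2 CPM, both past 2-fold. Cx3cr1, the fractalkine receptor, at 80.6, 155 and 131 CPM and P2ry12, the purine receptor of resting microglia, at 53.0, 88.0 and 85.9 CPM differed less than 2-fold. Itgam, which encodes CD11b, was at 29.1, 84.1 and 44.3 CPM and Ptprc, which encodes CD45, at 8.96, 24.4 and 13.1 CPM, in the same order of libraries. Sall1, a transcription factor of microglia, stood apart at 109, 126 and 108 CPM. Tmem119, Laptm5 and Olfml3 were also counted in the SB28 libraries (Tmem119 at 141 to 377 CPM, above its level here), whereas Csf1r, Cx3cr1, C1qa and Itgam did not pass 0.637 CPM there. Of 11 genes linked to microglia in disease, 9 had a mean of at least 1 CPM. Of these, 3 had the order 1 < 3 < 2, beside 13.9% of all genes. Another 4 were highest in library 3, beside 49.9%, and 2 in library 1, beside 19.7%. The 3 were the chemokines Ccl3 (13.4, 26.0 and 24.7 CPM) and Ccl4 (8.93, 17.5 and 15.3 CPM) and the receptor Clec7a (0.787, 5.32 and 2.57 CPM). Gpnmb (3.63, 3.81 and 3.97 CPM) was highest in library 3, as was Spp1, and the kinase Axl (224, 194 and 206 CPM) was highest in library 1, as was Apoe, which took most of the 7482, 6122 and 6650.2 CPM of the list.

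The antigen-presenting genes of MHC class II had the largest ratio of summed levels of any list, 5.99-fold between library 2 and library 1. Class II molecules present peptides to CD4+ T cells; H2-Aa, H2-Ab1 and H2-Eb1 encode their chains, Cd74 the invariant chain that guides them, and Ciita the master regulator of their transcription. The 5 genes summed to 46.5, 278 and 119 CPM in libraries 1, 2 and 3, with intervals of 44.0 to 49.0, 272 to 285 and 115 to 124 CPM that do not overlap. All 5 were at least 2-fold higher in library 2 than in library 1, beside 1.66% of all genes. All 5 were at least 2-fold higher in library 3 than in library 1, beside 1.08% of all genes. All 5 were also at least 2-fold lower in library 3 than in library 2, beside 0.368% of all genes. H2-Aa was at 8.59, 59.5 and 23.6 CPM, H2-Eb1 at 8.11, 52.4 and 21.03 CPM and H2-Ab1 at 8.76, 44.3 and 21.2 CPM. Cd74 was at 20.6, 120.1 and 52.7 CPM and Ciita at 0.376, 2.06 and 0.960 CPM. Set over the level of Csf1r in each library, the class II sum was 0.261, 0.746 and 0.444, whereas the microglia list over Csf1r was 6.29, 6.07 and 6.49. In the SB28 libraries the class II list did not pass 0.637 CPM in any library. MHC class I genes, which most cells express, summed to 357, 421 and 398 CPM and did not differ 2-fold.

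Since these genes moved together, the stretches upstream of 2 of them are shown, from RefSeq on GRCm38.p6. The 150 bases that end at the base before the start site are given 5′ to 3′ on the strand of the gene, and capitals mark the sequence CTGATTGG, the Y box form of the CCAAT element known from class II promoters.
H2-Aa: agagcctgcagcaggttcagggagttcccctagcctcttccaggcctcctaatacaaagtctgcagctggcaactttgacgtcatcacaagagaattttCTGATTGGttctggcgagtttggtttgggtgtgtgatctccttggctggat
H2-Eb1: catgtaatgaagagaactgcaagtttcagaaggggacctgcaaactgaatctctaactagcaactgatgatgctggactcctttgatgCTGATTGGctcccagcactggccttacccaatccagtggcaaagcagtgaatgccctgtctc
The H2-Aa stretch is chr17:34287824-34287973 on the minus strand, and that of H2-Eb1 is chr17:34305717-34305866 on the plus strand. The 8 bases lay 44 to 51 bases before the start site of H2-Aa and 55 to 62 bases before that of H2-Eb1. Searched on both strands of 300 bases around each start site, CTGATTGG was present for 4.7% of 27025 genes and for both class II genes with an entry; H2-Ab1, Cd74 and Ciita had none. A match describes the letters alone.

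Transcripts of other blood and border cells were few. Border macrophage genes, of the macrophages of meninges and vessels, summed to 109, 212 and 187 CPM. Mrc1 (23.4, 47.5 and 35.7 CPM) and Stab1 (63.5, 119 and 106 CPM) were lowest in library 1. So were 7 of 8 in all, beside 35.4% of all genes. Neutrophil genes summed to 6.91, 29.0 and 7.42 CPM, from 170 to 745 counts. Their mean of 14.4 fell to 7.16 without library 2. All 3 genes with a mean of at least 1 CPM were at least 2-fold higher in library 2 than in library 1. Over all genes that share was 1.66%. All 3 were also at least 2-fold lower in library 3 than in library 2, beside 0.368%. S100a9, a calcium-binding protein that fills neutrophils, was at 3.15, 14.0 and 2.97 CPM, S100a8 at 1.98, 7.66 and 1.61 CPM and Ngp, a granule protein, at 1.23, 5.21 and 1.96 CPM. Monocyte genes summed to 9.58, 16.1 and 14.4 CPM. Of the 3 with a mean of at least 1 CPM, 2 were highest in library 2, beside 30.4% of all genes, and 1 in library 3, beside 49.9%. Ccr2, the chemokine receptor of inflammatory monocytes, had the largest ratio of library 2 to library 1 among them, 7.57, with 0.616, 4.66 and 1.18 CPM. Lymphocyte genes were at the limit: T cell genes summed to 2.57, 3.61 and 3.93 CPM, of which Cd4, which myeloid cells can also express, was 1.16, 2.18 and 2.09 CPM. Cd3e had 0 counts in libraries 1 and 3, Cd3g had 0 counts in all 3 libraries (up to 0.103 to 0.131 CPM), and B cell genes summed to 1.33, 1.71 and 2.27 CPM. NK cell genes summed to 2.77, 2.84 and 1.83 CPM, within the range of the SB28 libraries (0.375 to 3.63 CPM).

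Among genes with a mean of at least 10 CPM, the 10 with the largest ratio between the highest and the lowest library were chosen for that ratio, which is given as a description. Il1b, the inflammatory cytokine interleukin 1β, led with 3.73, 35.2 and 9.42 CPM, a ratio of 9.45. The class II genes H2-Aa, H2-Eb1, Cd74 and H2-Ab1 followed with ratios of 6.93, 6.46, 5.82 and 5.05. Lyz2, the lysozyme of macrophages and neutrophils, was at 20.7, 93.3 and 45.3 CPM and Cd14, the endotoxin co-receptor, at 9.85, 31.9 and 21.2 CPM. These 7 of the 10, genes of myeloid cells or class II, all had the order library 2 above library 3 above library 1, beside 13.9% of all genes tested. The other 3 had other orders. Rn45s, the ribosomal RNA precursor, was at 1913, 4958 and 1170.0 CPM, and Lars2, a mitochondrial leucyl-tRNA synthetase whose row can collect ribosomal RNA reads, at 1035, 1566 and 326 CPM, both highest in library 2 and lowest in library 3. Spp1, osteopontin, was at 15.6, 22.2 and 61.1 CPM and highest in library 3, although it is also of the list linked to microglia in disease.

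**Figure D3:**
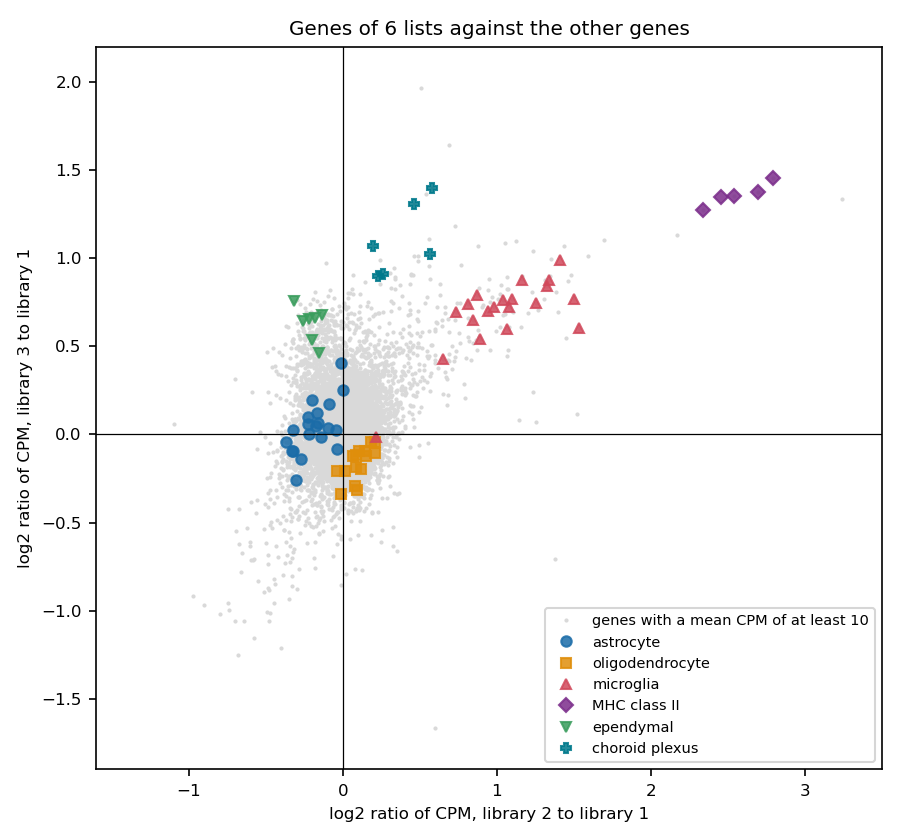
Each point is a gene, with the log2 ratio of its CPM in library 2 to library 1 on the horizontal axis and in library 3 to library 1 on the vertical axis; grey points are all genes with a mean of at least 10 CPM, and listed genes are drawn from 1 CPM. Class II genes lie at the far right, microglial genes between them and the centre except Sall1, choroid plexus genes high above it, ependymal genes at the upper left, and astrocyte and oligodendrocyte genes near the centre on either side.

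Genes of the ventricle wall followed another order, with library 3 the highest. The 6 choroid plexus genes summed to 1945, 2670.2 and 4758 CPM, with intervals of 1929 to 1961, 2650.2 to 2690.2 and 4730.2 to 4787 CPM. All 6 were highest in library 3, beside 49.9% of all genes, and had the order 1 < 2 < 3, beside 21.5%, with the same counts under TMM scaling. Library 3 was at least 2-fold above library 1 for 4 of 6, beside 1.08% of all genes. Library 2 was 2-fold above library 1 for none, beside 1.66%. Ttr alone took 1804, 2488 and 4474 CPM. The other 5 moved with it: Kl, the klotho protein, was at 45.8, 67.6 and 93.0 CPM, Folr1, the folate receptor of the plexus, at 27.9, 31.99 and 58.7 CPM, and Kcnj13, a potassium channel, at 9.96, 14.9 and 26.3 CPM. Kcne2, another channel subunit of the plexus, chosen after its values were seen, was at 8.59, 13.8 and 26.9 CPM. Ependymal genes summed to 785, 690.0 and 1180.2 CPM. All 7 in the table were highest in library 3 and lowest in library 2, as they were under TMM scaling. This order was held by 28.4% of all genes in CPM. Fam183b, 1 of the 7, was at least 2-fold higher in library 3 than in library 2, beside 0.573% of all genes. Foxj1, the master factor of motile cilia, was at 227, 205 and 314 CPM, and Tmem212 at 91.2, 78.2 and 144 CPM. The lists of both tissues were thus high in library 3 but differed in which library was lowest. In the SB28 libraries they summed to 5.67 to 11.9 and 0.900 to 1.48 CPM.

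Vascular genes were steadier. Endothelial genes summed to 814, 874 and 1009 CPM, of which Slc2a1, the glucose transporter of the blood-brain barrier and of astrocytes, was 432, 437 and 533 CPM. Of these genes 0 of 13 differed 2-fold, beside 2.99% of all genes. Pecam1, an adhesion molecule of endothelium, was at 20.7, 27.9 and 31.6 CPM and Flt1, a VEGF receptor, at 48.6, 59.1 and 64.2 CPM, both lowest in library 1. Library 3 was the highest for 11 of 13, beside 49.9% of all genes, and for 8 with TMM scaling, beside 5116 of 14137. Pericyte genes summed to 1185, 1345 and 1200.0 CPM, and 6 of 6 were highest in library 2, beside 30.4% of all genes, and 6 of 6 with TMM scaling, beside 4890 of 14137. Vtn, vitronectin, made up 698, 768 and 674 CPM of it and Rgs5, a regulator of G protein signalling, 102, 128 and 114 CPM. Acta2, the actin of smooth muscle, was at 52.9, 57.5 and 82.2 CPM and Dcn, the decorin of fibroblasts, at 28.3, 41.9 and 33.6 CPM. The smooth muscle and fibroblast lists were higher in the SB28 libraries, at 536 to 1064 and 8200.0 to 14382 CPM, than here, at 146, 169 and 198 and 175, 197 and 228 CPM. Hemoglobin genes had 0 counts in all libraries of the series; since the copies are near-identical, their rows cannot show how much red cell RNA was present, and Alas2, the heme synthesis enzyme of red cells, was at 0.684, 1.67 and 2.84 CPM.

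Neuronal transcripts were few beside those of astrocytes and oligodendrocytes. On the length-scaled level the neuron list was at 178 ± 8.73 and Snap25 at 3.28 ± 0.0906. The 12 neuron genes summed to 115, 119 and 129.5 CPM, below the SB28 libraries (172 to 382 CPM), where Thy1, Nefl and Stmn2 were counted. Snap25, a synaptic vesicle fusion protein, was at 5.61, 5.48 and 5.50 CPM, Syt1, the calcium sensor of vesicle release, at 1.09, 1.20 and 2.05 CPM and Rbfox3, which encodes NeuN, at 1.20, 1.01 and 1.40 CPM. Together these genes made up only a small part of the sum of the neuron list. The excitatory marker Slc17a7 was at 1.30, 1.13 and 0.960 CPM and the inhibitory marker Gad1 at 2.43, 2.37 and 2.53 CPM, with no 2-fold difference. Npy, the neuropeptide Y of the inhibitory list, stood apart with 143, 76.3 and 72.8 CPM, about all of the 151, 84.0 and 84.3 CPM of that list, while Sst and Vip had at most 1 count. Npy was highest in library 1, and so were Camk2a (14.9, 7.54 and 7.33 CPM) and the genes Prss56 (47.6, 24.3 and 25.2 CPM), Foxd3 (17.04, 11.4 and 7.64 CPM) and Igf1 (33.8, 21.1 and 14.2 CPM), the last 3 chosen after their values were seen. Neuroblast genes summed to 40.8, 39.1 and 43.8 CPM, with Dcx, doublecortin, at 4.48, 4.39 and 3.75 CPM.

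The summed shares of gene families differed less. The 371 solute carriers in the table took 3.33, 3.04 and 3.23% of the counts in libraries 1, 2 and 3, beside 1.08% to 1.26% in the SB28 libraries. Cytosolic ribosomal proteins took 1.06, 1.05 and 1.16%, beside 3.88% to 5.52% in SB28, and collagens 0.149, 0.148 and 0.160%, beside 1.59% to 2.83%. Gene by gene, the median coefficient of variation was 6.08% for ribosomal proteins but 17.8% for collagens, against 7.71% over all genes. The nuclear genes of the respiratory chain took 0.747, 0.709 and 0.813% and tubulins 0.512, 0.506 and 0.495%, both within the SB28 range. The table held 0 genes encoded by the mitochondrial genome. Ribosomal protein genes were highest in library 3 for 78 of 78 with a mean of at least 1 CPM, respiratory chain genes for 77 of 83 and proteasome genes for 31 of 38, whereas the largest of the 3 shifts in sum was 1.15-fold. Over all genes the share was 49.9%. With TMM scaling, under which library 3 was the highest for 5116 of 14137 genes, the counts were 66, 70 and 26.

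**Figure D4:**
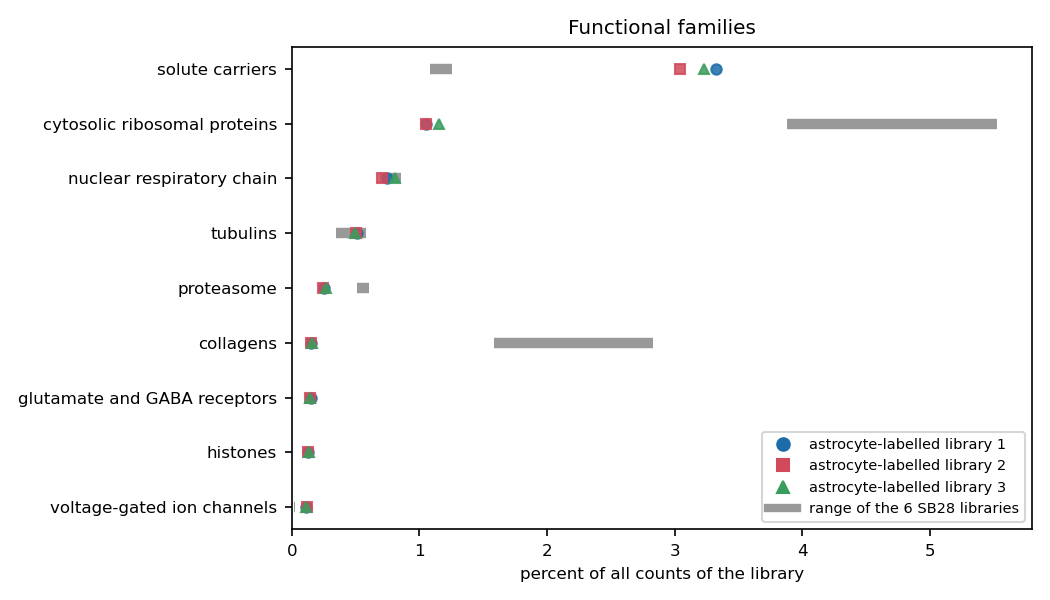
Percent of all counts taken by each functional family in the 3 astrocyte-labelled libraries (symbols), with the range of the 6 SB28 libraries in grey. The 3 libraries lie close together in each family drawn, above the SB28 range for solute carriers, voltage-gated ion channels and glutamate and GABA receptors, and below it for ribosomal proteins, proteasome and collagens.

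Transcript length moved with these ranks. Among the 25% of tested genes with the shortest exons in sum, library 3 was the highest for 65.4% (median 2003 bases), and among the 25% with the longest for 33.8% (9235 bases). Library 2 went the other way, with 18.9% and 41.6%. The median exon length of the tested genes was 4497 bases over all genes, 1776 for ribosomal proteins, 1718 for the respiratory chain, 1372 for ependymal genes and 3106 for choroid plexus genes. It was 2431 for microglia and 2568 for class II. The part of length in the level of any list was not tested.

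A few transcripts abundant in SB28 libraries were at a small share of that level in the astrocyte-labelled ones. Of 1807 genes with at least 100 CPM in each of the 6 SB28 libraries, 14 stayed below 1% of their lowest SB28 level in all 3 astrocyte-labelled libraries. Library 3 was the highest for 13 of these 14, beside 49.9% of all genes with a mean of at least 1 CPM here. The 14 were chosen for these low values, which are given as a description. Their median share of the SB28 level was 0.127% in library 1, 0.0662% in library 2 and 0.646% in library 3. Ranked by the highest share in any of the 3 libraries, the 5 lowest were Prkg2, Crabp1, Fosl1, Mmp3 and Grem1. Crabp1, a retinoic acid binding protein, had 46, 22 and 170 counts, or 1.57, 0.855 and 7.42 CPM, against at least 1624 CPM in SB28. Mmp3, a matrix metalloproteinase, had 14, 14 and 85 counts, and Fosl1, a Fos family factor, 5, 1 and 15. Prkg2, a cGMP-dependent kinase, was the exception, with 13, 0 and 5 counts. Spp1, also among the 14, stood at 0.166%, 0.236% and 0.648% of its lowest SB28 level, and Timp1, an inhibitor of metalloproteinases and another of them, was at 1.27, 1.32 and 4.49 CPM. Col1a1, a fibrillar collagen of the fibroblast list and not of the 14, was highest in library 3 too, with 39.5, 39.7 and 56.9 CPM here and 3340.1 to 5589 CPM in SB28. The part of SB28 RNA in these levels was not tested. The choroid plexus and ependymal lists, highest in library 3 as well, did not pass 11.9 and 1.48 CPM in any SB28 library.

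**Figure D5:**
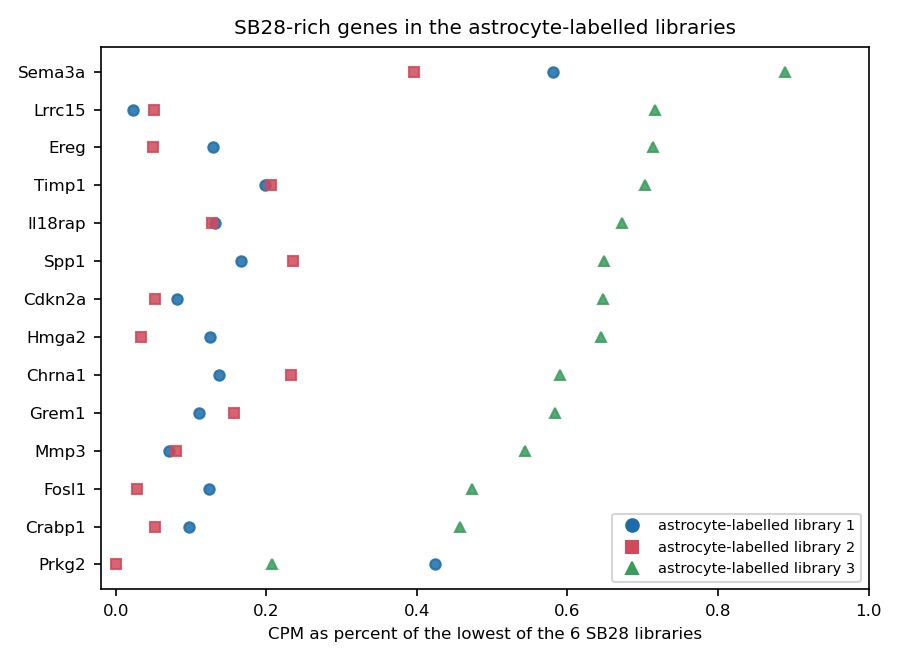
CPM in the 3 astrocyte-labelled libraries as percent of the lowest SB28 library, for the 14 genes with at least 100 CPM in every SB28 library and less than 1% of that level here. Library 3 lies to the right for 13 of the 14 genes, beside 49.9% of all genes tested, and Prkg2, highest in library 1, is the exception.

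Lists of cell state differed from each other in spread, with a median coefficient of variation of 8.54% for heat shock, 10.04% for immediate early, 17.1% for reactive astrocyte and 24.4% for ischaemic astrocyte genes, against 7.71% over all genes. Immediate early genes, which are induced within minutes by stimulation or by tissue handling, summed to 1383, 1457 and 1581 CPM, and Fos was at 298, 299 and 311 CPM. Heat shock genes summed to 3835, 3714 and 4453 CPM and interferon response genes to 135, 125 and 128 CPM, and no gene of these 3 lists differed 2-fold. The 13 genes common to reactive astrocytes summed to 654, 651 and 763 CPM. Vim, vimentin, was at 296, 264 and 391 CPM and Serpina3n, a protease inhibitor, at 48.5, 61.9 and 38.4 CPM, and 2 of the 13 differed 2-fold, beside 2.99% of all genes: Lcn2, lipocalin 2, which neutrophils also express, at 1.30, 8.94 and 0.480 CPM and highest in library 2, and Timp1. Of the 12 genes linked to inflammation in astrocytes, C3, the complement component, was at 20.1, 33.6 and 33.7 CPM and none differed 2-fold. The 12 linked to ischaemia summed to 199.5, 217 and 289.6 CPM. Of these, 9 had a mean of at least 1 CPM and 2 differed 2-fold, beside the same 2.99%, Ptgs2, the inducible cyclooxygenase (3.87, 13.2 and 5.54 CPM), and Cd14, both highest in library 2. Mitosis genes summed to 43.7, 44.0 and 52.5 CPM, far below the 821 to 987 CPM of the SB28 libraries, and Mki67, the proliferation antigen, was at 10.8, 11.7 and 13.6 CPM. Xist, the RNA that coats the inactive X chromosome, was at 1404, 1378 and 1321 CPM, and the Y-linked genes Ddx3y, Kdm5d, Eif2s3y and Uty had 0 counts in each of the 3 libraries.

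Over all genes the 3 libraries were close. The spread of a gene over the libraries had a median coefficient of variation of 7.71%, against 10.1% for the astrocyte list, 9.36% for oligodendrocytes, 34.5% for microglia, 32.5% for ependymal genes, 38.3% for the choroid plexus and 78.7% for class II. Of 14137 genes, 423 differed 2-fold between the highest and the lowest library. Without library 1 there were 133, without library 2 there were 191 and without library 3 there were 259. Levels at least 2-fold lower were held by 0.177% of genes in library 2 and 0.276% in library 3, each against library 1. Among genes chosen after their values were seen, Sgk1, a kinase that glucocorticoids induce, was low in library 1 with 100, 208 and 213 CPM, and so was Plin4, a lipid droplet protein, with 15.0, 32.6 and 32.03 CPM.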

How the data were processed

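Total RNA of the libraries was extracted with QIAGEN reagents and made into stranded TruSeq libraries with reads of 50 bases. The authors deposited raw counts per gene, made from alignments to mm10; the submitters' processing notes name TopHat and HTSeq 0.6.1, and the Methods also name PicardTools and featureCounts. Which counter and annotation made the table, and how shared reads were treated, are not given in the sources used here.

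Libraries were grouped by their labels. CPM were computed on library totals of 22919523 to 29230743 counts over 24421 rows. The 27 rows whose names a spreadsheet had turned into dates stayed in the totals (at most 0.440%) and were not named, and 5 genes are not reported here by name. For length-scaled levels, exon lengths of GENCODE vM21 (GRCm38) matched 23350 rows by symbol and 668 by an older symbol, and 403 had none. Genes with a mean of at least 1 CPM were compared between libraries by ratio and order, without a test. Named were genes of the lists, the top 25 in CPM and per length, the 10 largest ratios from 10 CPM on, and the 5 lowest shares of an SB28 level of at least 100 CPM; others are marked as chosen after their values were seen. The members and lists were chosen with earlier results of these data known. Ly6g and 1700009P17Rik were not analysed here. Alternatives were TMM scaling (edgeR 4.0.16), DESeq2 1.42.0 size factors, length scaling, other filters, and leaving out each library. Intervals were computed with scipy 1.17.1 and figures drawn with matplotlib 3.10.9. The scripts were tested on simulated data.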

Additional observations from a re-analysis of the deposited data

How the results depend on the processing

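Scaling with the TMM factors of edgeR or the size factors of DESeq2 moved 0 of 22 results each by more than 1 SD, or 1.5 times for a count, and leaving Rn45s and Lars2 out of the library totals, chosen after seeing the data, moved 0 of 32. Factors fitted over the same 3 libraries (TMM 0.982 to 1.029) hardly change a mean over them, so that they are no check of the means. They can change orders: library 3 was the highest for 13 of 20 astrocyte genes in CPM and for 6 with TMM scaling. The mean levels that moved by more than 1 SD did so when counts were divided by exon length, a change of unit. The length-scaled sums of the marker lists were then astrocyte 25651, oligodendrocyte 27208, oligodendrocyte precursor 96.0, microglia 3076, monocyte 26.8, neutrophil 90.7, T cell 4.27, B cell 3.94, neuron 178, excitatory neuron 7.68, inhibitory neuron 716, neuroblast 30.0, endothelium 1116, pericyte 1885, smooth muscle 388, fibroblast 119, ependymal 2405, choroid plexus 10093 and erythrocyte 2.88, and the shares of the families were cytosolic ribosomal proteins 2.65%, nuclear respiratory chain 1.74%, proteasome 0.400%, solute carriers 2.32%, Hox 0.000197%, collagens 0.0920%, histones 0.226%, tubulins 0.960%, voltage-gated ion channels 0.0726% and glutamate and GABA receptors 0.114%. The 423 genes that differed 2-fold became 86 with a mean of at least 10 CPM (0.820% of 10484 genes) and 3636 with no filter (of 18664 genes), and 133 to 259 with 1 library left out, since fewer pairs remain. Leaving out 1 of 3 libraries cannot move a mean by 1 SD, so that it is no check of the means. Among the cell type and family lists, 1 mean moved by over 1.5 times. It was that of the neutrophil list, from 14.4 to 7.16 CPM without library 2. The class II list and the lists of function and cell state were not part of this check. Genes detected numbered 13840, 14850 with at least 10 counts and 16852 with at least 1 count in all 3 libraries. The library total without mitochondrially encoded genes could not be formed, since the table holds 0 of them. No paired analysis was possible because the libraries form 1 group and no test was made. Depth limits the genes with few counts, such as Cd3e with 0 to 4 counts.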

Other observations

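Several further genes, all chosen after their values were seen, were highest in library 1. Mybpc1, a myosin-binding protein, was at 33.3, 19.98 and 16.7 CPM, and Grik3, a kainate receptor subunit, at 64.8, 49.01 and 28.0 CPM. Both had the order of Foxd3 and Igf1, with library 3 the lowest. Genes highest in library 2 outside the myeloid lists included Zbtb16, a zinc finger factor, at 6.57, 18.8 and 7.11 CPM and Thbs1, a secreted thrombospondin, at 17.2, 41.0 and 18.0 CPM. Prlr, the prolactin receptor, and Sostdc1, a secreted Wnt and BMP antagonist, had the order of the choroid plexus genes, with 16.9, 24.6 and 43.5 CPM and 11.4, 16.8 and 24.6 CPM.

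The 10 genes of synaptic vesicles summed to 595, 627 and 536 CPM, beside 46.7 to 66.8 CPM in the SB28 libraries. They shared neither a level nor an order, since Syt1 was at 1.09, 1.20 and 2.05 CPM, and 2 of 10, Sv2a and Vamp2, had the order 3 < 1 < 2, beside 16.5% of all genes. Sv2a, a vesicle glycoprotein, was at 254, 289 and 200.4 CPM and Vamp2, the vesicle fusion protein synaptobrevin, at 226, 232 and 223 CPM. On the length-scaled level Vamp2 was at 239.9 and Snap25 at 3.28.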
